A study of Homo sapiens with 8 samples.

Results

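The RGS1 locus on human chromosome 1 holds 4 genes of interest in Raji cells, a B cell line from a Burkitt lymphoma: RGS1, the noncoding RNA gene ENSG00000289995, RGS13 and RGS2. These 4 rows were taken by name from the 25377 genes of the RNA table. All ATAC-seq peaks lying wholly between the start of the labelled interval, base 192515157 of chromosome 1 (hg38), and a point under 3 kb past the end of RGS2 were taken with them, which gave 22 of the 70312 peaks of the ATAC table. Unedited cells were compared with cells in which Cas9 and 2 guide plasmids had been used to remove a super-enhancer, named RGS-SE, after which single clones were picked under puromycin. The labels list no further treatment and no time point. How many clones were used is not stated, so genotype and clone cannot be told apart. Whether the wild-type cells passed through electroporation and selection is not stated either. Each genotype had 2 RNA-seq and 2 ATAC-seq libraries, 8 in all, labelled as biological replicates. The p-values measure only the spread between these libraries.

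RGS proteins speed up the GTPase activity of G protein alpha subunits and so shorten signals from G protein-coupled receptors. In B cells, RGS1 and RGS13 are known for damping responses to chemokines, and RGS13 is characteristic of germinal centre B cells, from which Burkitt lymphoma derives. RGS2 acts mainly on Gq-coupled signals. A super-enhancer is a dense cluster of enhancers, and ATAC-seq finds such elements by the insertion of a transposase into open chromatin.

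All 4 genes are transcribed from the + strand. On hg38 with GENCODE release 44, RGS1 (ENSG00000090104) lies at chr1:192575763-192580024 and the noncoding gene at chr1:192609359-192634544. RGS13 (ENSG00000127074) lies at chr1:192636138-192660311 and RGS2 (ENSG00000116741) at chr1:192809039-192812275. The labels describe the target as the stretch separating RGS1 from RGS13, but the coordinates they give, chr1:192515157-192741754, span 226.6 kb and take in both of these genes. RGS2 and 4 of the 22 peaks lie beyond that interval.

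The start sites of the 4 genes are shown because each falls in a peak whose accessibility was measured. The windows run from 250 bases before the start to 50 after it, on the + strand of hg38, and base 251 is the first transcribed one, in RefSeq for 3 genes and in GENCODE for ENSG00000289995. For RGS1 and RGS13 that base lies 10 and 9 bases past the GENCODE start given above. The RGS1, RGS13 and RGS2 windows are RefSeq promoters (GRCh38.p14) and matched hg38 exactly. The window of ENSG00000289995 was read from hg38 at the GENCODE start. Capitals mark matches on either strand to 13 short motifs.
RGS1, chr1:192575523-192575822: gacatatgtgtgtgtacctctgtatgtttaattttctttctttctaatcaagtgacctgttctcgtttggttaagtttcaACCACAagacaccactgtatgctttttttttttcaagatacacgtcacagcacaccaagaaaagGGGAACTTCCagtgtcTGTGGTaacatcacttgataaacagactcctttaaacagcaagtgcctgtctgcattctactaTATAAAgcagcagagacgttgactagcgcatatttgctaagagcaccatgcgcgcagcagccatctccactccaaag
ENSG00000289995, chr1:192609109-192609408: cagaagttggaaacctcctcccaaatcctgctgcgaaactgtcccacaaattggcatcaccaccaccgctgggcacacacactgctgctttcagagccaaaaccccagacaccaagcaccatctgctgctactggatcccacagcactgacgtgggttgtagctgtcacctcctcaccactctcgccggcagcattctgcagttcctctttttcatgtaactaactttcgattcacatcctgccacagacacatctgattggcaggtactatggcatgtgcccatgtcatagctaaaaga
RGS13, chr1:192635897-192636196: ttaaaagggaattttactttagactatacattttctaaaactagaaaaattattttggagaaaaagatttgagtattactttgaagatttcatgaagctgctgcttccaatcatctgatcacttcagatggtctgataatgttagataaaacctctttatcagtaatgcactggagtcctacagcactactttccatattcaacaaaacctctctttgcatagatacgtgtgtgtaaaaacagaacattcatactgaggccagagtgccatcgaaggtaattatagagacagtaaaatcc
RGS2, chr1:192808789-192809088: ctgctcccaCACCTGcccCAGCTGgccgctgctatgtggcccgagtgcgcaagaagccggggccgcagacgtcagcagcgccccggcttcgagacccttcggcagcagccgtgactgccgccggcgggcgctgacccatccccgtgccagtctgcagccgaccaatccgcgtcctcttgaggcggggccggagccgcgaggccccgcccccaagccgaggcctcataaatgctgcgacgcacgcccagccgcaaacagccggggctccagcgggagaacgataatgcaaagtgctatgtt

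The motifs were the octamer (ATGCAAAT), PU.1 (GAGGAAGT), AP-1 (TGANTCA), RUNX (TGTGGT), the E-boxes CAGGTG and CAGCTG, the TATA box (TATAAA), and, by name, the ETS-IRF composite, the IRF repeat, EBF1, the CTCF core, NF-kB and MEF2. The RGS1 window held GGGAACTTCC, a match to the NF-kB motif that began 106 bases before the start, and 11.3% of all 35116 RefSeq promoters held that motif. It also held 2 RUNX matches, a motif found in 13.1% of promoters, and TATAAA that began 27 bases before the start, found anywhere in the window in 11.5% of promoters. The RGS2 window held 1 match to each E-box, present in 20.6% and 17.9% of promoters. No match overlapped another. The windows of RGS13 and ENSG00000289995 held none of these letters. The base composition also differed, from 33.7% G and C at RGS13 and 41.7% at RGS1 to 51.7% at ENSG00000289995 and 69.7% at RGS2. A match is a description of the letters and not a measured binding site.

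The deposited tables are DESeq2 result tables, with 1 mean per gene or peak over the 4 libraries of an assay. Whole read counts per library were recovered from those means, as 24231 of 25377 genes and 70304 of 70312 peaks each had a single set of whole numbers kept from those that met the deposited mean. The deposited fold change was also returned for 18479 of these genes and 70286 of these peaks. The rest had no read in a genotype, and only the direction of their fold change could be used. The recovered counts cannot be tied to replicate numbers, so libraries are named by depth within their genotype. Over the 25276 genes left with a single set of counts, by the mean alone or with the fold change, the RNA libraries held 33552951 and 18972748 reads in wild type and 28185034 and 27304530 in the knockout. The ATAC libraries held 18173441 to 21903162 reads in peaks. The wild-type RNA libraries stood further apart than the knockout ones, with a median absolute difference of 0.28 against 0.07 on the log2 scale over 10574 genes with a mean of at least 100. In ATAC-seq the same difference was 0.10 in each genotype. Neither table says which genotype is the numerator of its ratios. Positive values were taken to mean higher in the knockout because a peak inside the targeted interval had 0 reads on one side, and every direction would turn if it were coded the other way. Both tables are coded alike, in that 150 of 156 genes changed at least 2-fold in RNA and in a promoter peak moved in the same direction. All 8 B cell markers were in the table. Of 6 T cell markers, CD247 and CD3E were listed and CD3D, CD3G, CD4 and CD8A were not.

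RGS1 RNA was 11.2-fold higher in the knockout, while RGS13, the more abundant gene in wild-type cells, did not pass the test. ENSG00000289995 was read only in wild-type libraries, and RGS2 was lower without passing the test. Of the 4 genes, RGS1 rose and ENSG00000289995 fell at an adjusted p under 0.05, against 19.2% of the 17013 genes tested in the table (1682 higher and 1579 lower). With 4 genes such a share says nothing about the group. With 2 libraries against 2, an exact permutation test of a single gene cannot go below a two-sided p of 0.333, so calls rest on the spread shared across genes in DESeq2.

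RGS1, the regulator that damps chemokine responses of B cells, had 614 and 276 reads in the deeper and shallower wild-type libraries, against 5157 and 4948 in those of the knockout. Divided by the size factors, these were 471 and 385 against 4840.2 and 4805. Both knockout libraries stood far above both wild-type libraries, and the knockout pair differed by less than the wild-type pair. In the authors' deposited table, the log2 fold change was 3.49 with an SE of 0.18 and an adjusted p of 7.54e-79 (DESeq2 Wald test, Benjamini-Hochberg). By p-value RGS1 stood 7th among the genes tested, and by fold change 406th.

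RGS13, the germinal centre member of the family, had 10553 and 3362 reads in wild type and 5998 and 5705 in the knockout libraries. The normalised counts were 8099 and 4689.8 in wild type and 5629.5 and 5540.4 in the knockout. The knockout values lay between those of the wild-type libraries, which were 1.73-fold apart, and 6.84% of genes with a mean of at least 100 had a wider wild-type gap. The authors' deposited table gives a log2 fold change of -0.20 with an SE of 0.22, a 95% interval from -0.63 to 0.24 and an adjusted p of 0.628 (DESeq2). The direction depended on the wild-type library. With limma on the recovered counts, RGS13 was 0.25 higher on the log2 scale without the deeper wild-type library (adjusted p 0.00504) and -0.54 without the shallower one (adjusted p 1.49e-05). In these fits the lone wild-type library is assumed to vary like the knockout pair, and they called 8084 and 6441 of 16912 genes, against 2598 with all libraries.

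RGS2, which regulates Gq-coupled signals and lies outside the labelled interval, had 249 and 113 reads in wild type and 98 and 119 in the knockout. The normalised counts were 191 and 158 against 92.0 and 116. The genotypes thus did not overlap, which for 2 libraries against 2 is a two-sided p of 0.333 in an exact permutation test. In the authors' deposited table the log2 fold change was -0.75 with an SE of 0.43, a 95% interval from -1.59 to 0.09 and an adjusted p of 0.233 (DESeq2). A fall of the fitted size and no change both lie within that interval. Limma with all libraries gave -0.78 with an adjusted p of 0.105, and without the shallower wild-type library -0.89 with an adjusted p of 0.0146, in the fit that called 6441 genes.

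ENSG00000289995, a noncoding gene of 2 exons whose first base lies inside an accessible site, had 44 and 2 reads in wild type and 0 and 0 in the knockout libraries. The gene lies between RGS1 and RGS13, where the labels place the target. Whether its first exon remained in the knockout DNA was not tested, so lost template and lower transcription cannot be told apart. The normalised counts were 33.8 and 2.79 in wild type. Nearly all of its reads came from the deeper wild-type library. Set against the 3 reads over both knockout libraries that a count of 0 allows, its wild-type mean was at least 12.8-fold higher, and this bound covers counting error only. It rests on the deeper library, which alone gives 23.6-fold, while the shallower one alone gives 1.95-fold. The authors' deposited table gives an adjusted p of 0.0211 (DESeq2). The call was lost in a test against a 1.5-fold change (adjusted p 0.14), with statistics divided by their robust SD (0.547) and with limma (0.182). Among 3223 genes within 2-fold of its mean, 27.1% had a wild-type gap as wide or wider.

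Levels of different genes were compared per kb of the canonical transcript, with lengths of 1352 bases for RGS1, 1554 for RGS13, 1348 for RGS2 and 1114 for ENSG00000289995. In wild type the order of the per-kb level was RGS13 with 4115, RGS1 with 317, RGS2 with 129 and ENSG00000289995 with 16.4 normalised reads. In the knockout RGS13 stood at 3594 and RGS1 at 3567, followed by RGS2 at 77.0 and ENSG00000289995 at 0. The per-kb level of RGS13 was thus 15 and 10.6 times that of RGS1 in wild type and 1.01 and 1.00 times in the knockout libraries. With the merged exons of all transcripts as the length, the last ratios were 0.799 and 0.792, so the order of RGS1 and RGS13 in the knockout depended on the length used. RGS1 and RGS2 were 2.46 and 2.44-fold apart in wild type and 52.5 and 41.5-fold apart in the knockout per kb of canonical transcript. Per kb of merged exons these ratios were 1.26 and 1.25 in wild type and 27.0 and 21.3 in the knockout.

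**Figure D1:**
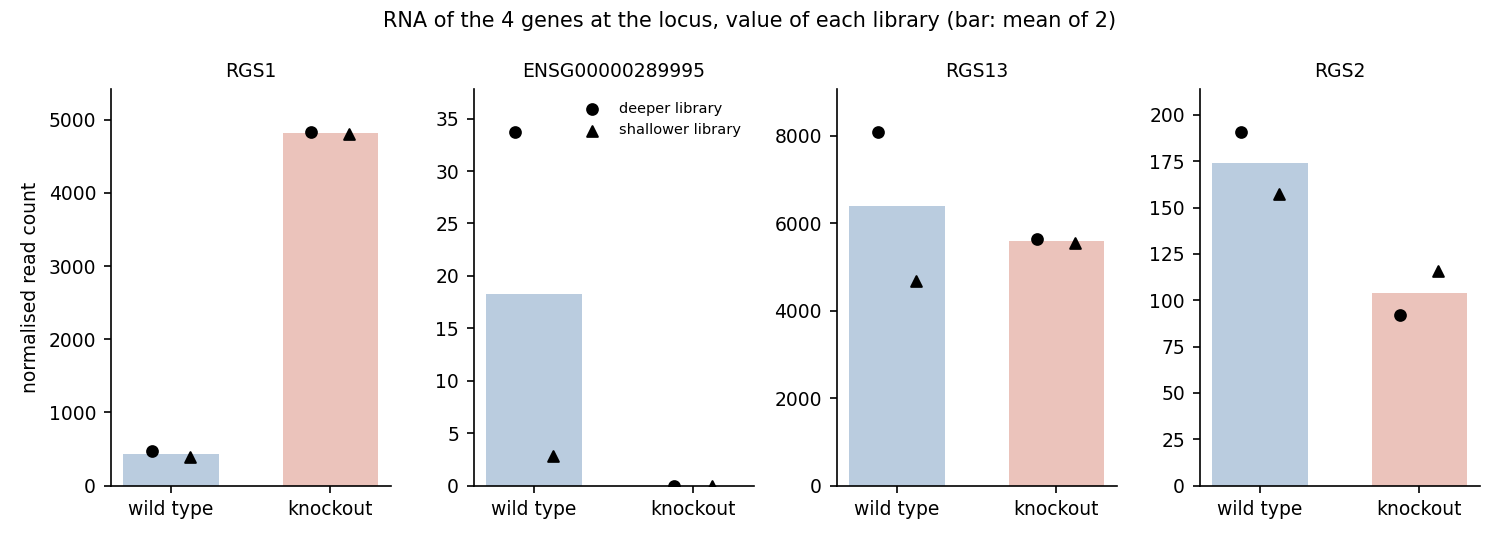
Normalised read counts (linear axes from 0, a scale of its own for each gene) of RGS1, ENSG00000289995, RGS13 and RGS2, with a circle for the deeper and a triangle for the shallower library of each genotype and bars for the mean of 2. RGS1 stood at 4840.2 and 4805 in the knockout against 471 and 385 in wild type, while the RGS13 values of the knockout lay between those of the wild-type libraries.

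Other genes at the locus were few. RGS18, another family member before RGS1, had 0 and 0 reads in wild type and 2 and 5 in the knockout and got no adjusted p from the authors. The noncoding gene ENSG00000236069, which starts in the first peak of the window, had 0 and 0 against 3 and 2 reads and was not tested either. The processed pseudogene RPS27AP5, inside the labelled interval, had 214 and 199 against 210 and 306 reads, and these reads are uncertain because its parent gene is a near-identical copy. The antisense noncoding gene ENSG00000285280 runs along the - strand over the whole locus and had 33 and 0 against 27 and 21 reads, with an adjusted p of 0.78 in the authors' deposited table. Whether counting used strand is not given in the sources used here, so reads of the 4 genes and of this antisense partner may not be separated.

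Within 1 Mb, the protein-coding genes past RGS2 with reads in every library did not pass the test in the authors' deposited table. They were UCHL5, a proteasome deubiquitinase, with -0.17 and an SE of 0.19 on the log2 scale, RO60, an RNA-binding protein, with 0.30 and 0.20, GLRX2, a mitochondrial glutaredoxin, with 0.45 and 0.27, and CDC73, a subunit of the PAF1 complex, with 0.20 and 0.16. The pseudogenes ENSG00000226723 and ZNF101P2 had at most 17 reads in a library, with adjusted p-values of 0.79 and 0.761 there. ENSG00000236792, B3GALT2, LINC01031 and ENSG00000286285 had at most 3 reads in any library and were not tested.

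The largest change in ATAC-seq reads at the locus was at the start of ENSG00000289995. Removed DNA gives 0 reads whatever its accessibility, and whether this DNA remained in the knockout was not tested. Peak 11, counted from the RGS1 side, covers chr1:192609102-192609836, 735 bases that hold the whole start site window printed above for that gene. It had 679 and 592 reads in wild type and 0 and 0 in the knockout libraries. Normalised, the wild-type values were 616 and 627, which placed its reads per kb above 92.2% of all peaks. Its wild-type mean was at least 412-fold higher than the 3 reads over both knockout libraries that a count of 0 allows. The authors' deposited table gives an adjusted p of 2.16e-14 for this peak (DESeq2), and the call remained in each alternative run, with a highest adjusted p of 0.0356. Only 2 of the 70312 peaks had no read in either knockout library, and the other had a wild-type mean of 43.0, while 16 peaks had none in either wild-type library. HOMER, as run by the authors, places the centre of the peak in an LTR repeat, MLT1N2. A repeat of some kind was named for 6 of the 22 window peaks and 28.2% of all peaks. Of the 13 motifs, only the IRF repeat matched in the peak, once, and 12.8% of windows of this length centred on the 70312 peaks held it.

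Reads at the flanking peaks bound the stretch without reads. The nearest peaks with reads in the knockout ended at 192605672 on the RGS1 side and began at 192615010 on the RGS13 side, 9337 bases apart. The other 17 of the 18 peaks in the labelled interval held between 28 and 982 reads in each knockout library. The labelled interval was therefore not missing as a whole from the knockout libraries. Reads between peaks were not analysed here, so the ends of the deletion were not measured.

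**Figure D2:**
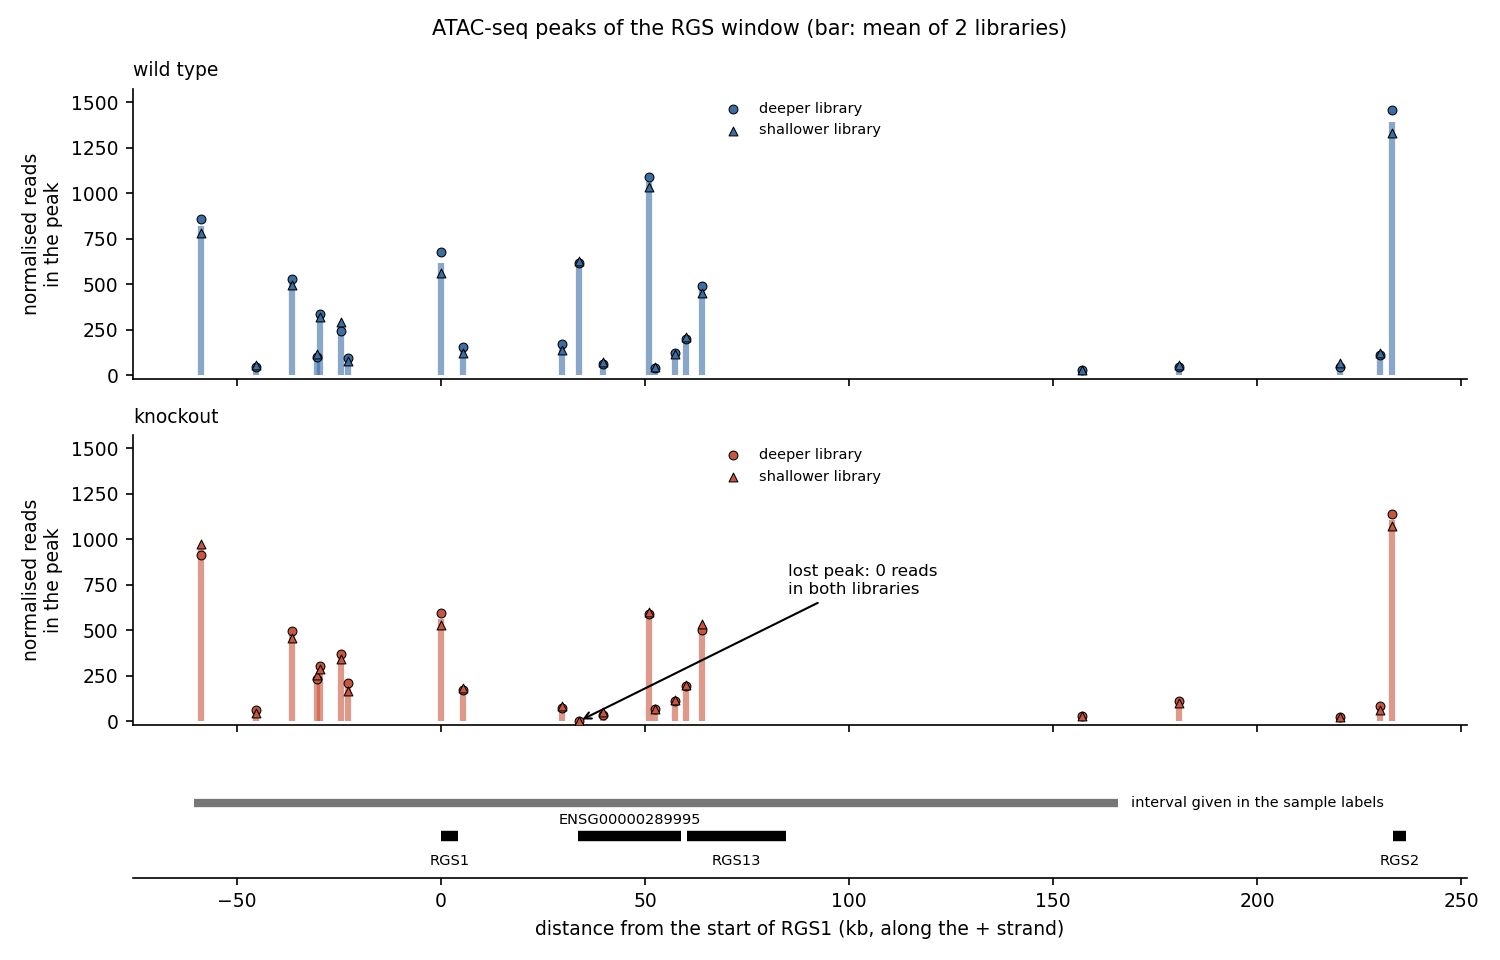
Normalised ATAC-seq reads in each of the 22 peaks by distance of the peak centre from the RGS1 start in kb, wild type above and knockout below, with a circle and a triangle for the deeper and the shallower library and bars for their mean. The lowest panel marks the labelled interval and the 4 genes. Peak 11 had 616 and 627 normalised reads in wild type and 0 in each knockout library, and the other peaks held reads in all 4 libraries.

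Of the 22 peaks, 4 were higher and 6 lower in the knockout at an adjusted p under 0.05, against 20.4% of all peaks higher and 15.5% lower. Without peak 11, whose 0 reads set which genotype was read as the knockout, 4 of 21 were higher and 5 lower. The genotypes did not overlap at 18 of the 22 peaks, and at 51532 of all 70312. The median log2 fold change in the authors' deposited table was -0.06 over the window and -0.01 over all peaks. In a test against a 1.5-fold change, no window peak stayed higher and 1 stayed lower, and with statistics divided by their robust SD 0 were higher and 2 lower. The summed normalised reads of the window in the knockout were 85.4% of wild type, over 16366 covered bases, and 93.3% without peak 11.

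The 3 peaks of the labelled interval that rose all lay before RGS1. Peak 4, chr1:192544848-192545630, had 102 and 119 normalised reads in wild type and 230 and 254 in the knockout, with a log2 fold change of 1.14, an SE of 0.20 and an adjusted p of 1.57e-07 in the authors' deposited table (DESeq2). Peak 7, chr1:192552709-192553301, had 94.4 and 79.4 against 209 and 166, for which that table gives 1.11, 0.23 and 1.44e-05. Peak 6, chr1:192550688-192551737, rose less, from 243 and 291 to 368 and 344, with an adjusted p of 0.02 in the authors' deposited table (DESeq2), and limma without the deeper wild-type library gave 0.106. These 3 peaks lay 22.8 to 30.5 kb before the RGS1 start. Peak 5, only 220 bases past peak 4, had 336 and 321 against 303 and 287 and did not pass the test.

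The other 3 peaks on that side did not pass the authors' test either. Peak 1, chr1:192516603-192517296, was the strongest of them, with 857 and 779.6 normalised reads in wild type and 912 and 976 in the knockout and an adjusted p of 0.0642 in the authors' deposited table (DESeq2). Limma on the recovered counts called peak 1 higher (adjusted p 0.0150), in a fit that called 34497 of 70311 peaks. Peak 2, chr1:192530258-192530760, had at most 66 reads in a library, and peak 3, chr1:192538470-192539932, kept 93.2% of its wild-type mean. The 7 peaks before the RGS1 promoter peak together held 117.6% of their wild-type reads.

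At the RGS1 promoter no change in accessibility passed the test. Peak 8, chr1:192575282-192576081, which holds the RGS1 window printed above, had 676 and 560.3 normalised reads in wild type and 593 and 530.5 in the knockout, so the genotypes overlapped. In the authors' deposited table its log2 fold change was -0.14 with an SE of 0.12, a 95% interval from -0.37 to 0.09 and an adjusted p of 0.381 (DESeq2). A rise in peak reads as large as that in RGS1 RNA lies outside that interval, but peak reads and RNA are unlike measures. With limma the value was 0.01 without the deeper wild-type library and -0.26 without the shallower one. Peak 9, chr1:192580493-192581773, just past the RGS1 end, had 154 and 122 against 175 and 183 normalised reads and an adjusted p of 0.16 in the authors' deposited table (DESeq2). Limma with all libraries called it higher (adjusted p 0.0490), in the fit that called 49.1% of all peaks.

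From the end of RGS1 to the RGS13 promoter peak, 3 of 7 peaks fell and 0 rose, against 15.5% and 20.4% of all peaks. The direction of peak 11 was fixed in advance, since its 0 reads set which genotype was read as the knockout. Without peak 11, 2 of 6 fell and 0 rose. Together these 7, peaks 9 to 15, held 48.7% of their wild-type reads in the knockout, over 5103 covered bases, and 67.8% without peak 11. Besides peak 11, the falls were at peak 10, chr1:192604962-192605672, and peak 13, chr1:192626270-192627352. Peak 13 lies in the intron of ENSG00000289995 and was the strongest peak of the stretch, with 1088 and 1034 normalised reads in wild type against 589 and 599 in the knockout. The authors' deposited table gives it a log2 fold change of -0.84 with an SE of 0.09 and an adjusted p of 1.76e-18 (DESeq2). Peak 10 had 169 and 137 against 73.3 and 83.5 normalised reads, with an adjusted p of 5.14e-04 in the authors' deposited table (DESeq2).

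The remaining peaks of the noncoding gene's intron did not pass the test. Peak 12, chr1:192615010-192615709, had 62.6 and 74.1 normalised reads in wild type and 35.3 and 51.6 in the knockout, with an adjusted p of 0.134 in the authors' deposited table (DESeq2). Limma on the recovered counts called it lower (adjusted p 0.0256), in the fit that called 49.1% of all peaks. Peak 14, chr1:192628041-192628215, had 41.8 and 46.6 against 65.0 and 67.0, and peak 15, chr1:192633019-192633436, had 124 and 118 against 111 and 118. Neighbouring peaks 13 and 14, 688 bases apart, thus moved to opposite sides of their wild-type values, the former past the threshold and the latter not.

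The RGS13 promoter peak was nearly level between genotypes. Peak 16, chr1:192635580-192636237, had 197 and 211 normalised reads in wild type and 194 and 202 in the knockout. In the authors' deposited table its log2 fold change was -0.04 with an SE of 0.18, a 95% interval from -0.39 to 0.31 and an adjusted p of 0.888 (DESeq2). Peak 17, chr1:192639015-192640310, in an intron of RGS13, had 492 and 453 against 504 and 537 normalised reads, which did not overlap, and the authors' deposited table gives an adjusted p of 0.386 (DESeq2). Per kb of peak, the RGS1 promoter stood at 773 and the RGS13 promoter at 310 normalised reads in wild type, the reverse of the order of their RNA per kb.

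A gap of 92528 bases without a peak followed peak 17, beginning inside RGS13. Peak 18, chr1:192732839-192733101, the last of the labelled interval, had 25 to 31 reads in each of the 4 libraries. Past the interval, all 4 peaks passed the test, against 35.9% of all peaks. None of these 4 kept its call in a test against a 1.5-fold change or with statistics divided by their robust SD. Peak 19, chr1:192756211-192757146, rose from 46.3 and 55.1 to 114 and 101 normalised reads, with an adjusted p of 0.0011 in the authors' deposited table (DESeq2). HOMER places its centre in an LTR repeat, LTR9. Peak 20, chr1:192795984-192796428, fell from 46.3 and 68.8 to 21.4 and 22, with an adjusted p of 0.0043 there, and peak 21, chr1:192805903-192806094, from 111 and 119.7 to 81.7 and 61.5, with 0.0369. Limma without the shallower knockout library did not call peak 21 (adjusted p 0.107).

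The RGS2 promoter peak was the strongest of the window and was lower in the knockout. Peak 22, chr1:192808398-192809291, had 1455 and 1328 normalised reads in wild type and 1139 and 1071 in the knockout, 79.4% of the wild-type mean. The authors' deposited table gives a log2 fold change of -0.33 with an SE of 0.08 and an adjusted p of 1.15e-04 (DESeq2). It was the only peak of the window rich in CpG, with 77 CpG dinucleotides and 64.7% G and C, where the other 21 had 33.3% to 44.1%. Of the 3 protein-coding genes, then, RGS1 rose in RNA with no called change at its promoter peak, RGS13 passed in neither assay, and RGS2 fell at its promoter peak and missed the threshold in RNA.

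**Figure D3:**
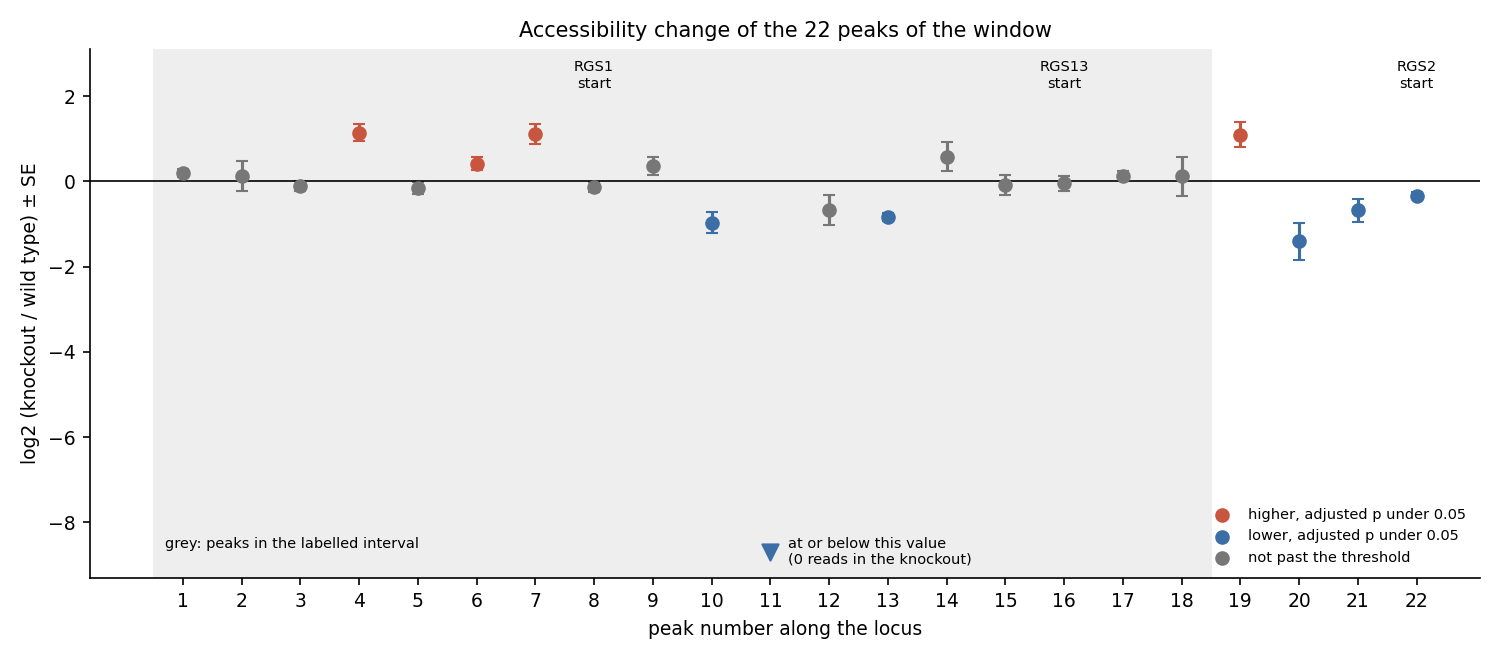
Log2 fold change of knockout over wild type with its SE, from the authors' deposited table, for the 22 peaks in order along the locus (red higher, blue lower, grey not past the threshold), with the labelled interval shaded. Peak 11 is drawn at its bound of at least 412-fold lower. Peaks 4, 6 and 7 rose before RGS1, peaks 10, 11 and 13 fell between RGS1 and RGS13, and the peaks at the RGS1 and RGS13 starts lay near 0.

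RGS1 was the only tested gene of its family that rose in the authors' deposited table, although limma without the deeper wild-type library called 3 higher. Of 21 RGS genes listed, 17 had a row and 13 were tested: 1 rose and 6 fell, against 9.89% of all tested genes higher and 9.28% lower, with a median log2 fold change of -0.75 in the authors' deposited table, beside 0.02 over all genes tested. The genes that fell were RGS3, RGS8, RGS9, RGS11, RGS14 and RGS16. RGS16, an inhibitor of Gi and Gq signals induced in activated lymphocytes, had 1412 and 1667 normalised reads in wild type and 976 and 868 in the knockout. RGS3 had 1296 and 1477 against 829 and 802. RGS14, which also carries a GoLoco motif, had 356 and 533 against 191 and 183.5. These 3 were the most abundant of those that fell, and their log2 fold changes in the authors' deposited table were -0.74, -0.76 and -1.24 with SEs of 0.20, 0.20 and 0.32 and adjusted p-values of 0.00267, 0.00159 and 0.00144 (DESeq2).

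RGS9, best known from photoreceptors, had 251 and 301 normalised reads in wild type against 115 and 117 in the knockout, with an adjusted p of 0.00544 in the authors' deposited table (DESeq2). RGS8 and RGS11 rested on few reads that came mostly from the shallower wild-type library. RGS8 had 16.1 and 61.4 against 1.88 and 5.83, and RGS11 had 1.53 and 54.4 against 0 and 0, at least 19.5-fold lower in the knockout by the limit of 3 reads. That bound rests on the shallower wild-type library, since the deeper one alone gives 1.07-fold. With limma neither passed (adjusted p 0.233 and 0.398), and limma called 4 members of the family lower with all libraries and 0 when either knockout library was left out. Over all genes, those fits without a knockout library called 964 and 961, against 2598 with all libraries. In a test against a 1.5-fold change, 1 member, RGS11, stayed lower, and RGS1 stayed higher. RGS5, RGS10, RGS19 and RGS20 did not pass the test.

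The G protein alpha subunits, listed from all classes, did not pass the test. Of 12 listed, 7 were tested and 0 were called, against 9.89% of all tested genes higher and 9.28% lower. With 7 genes such a count says little about the group. Their median log2 fold change was -0.05 in the authors' deposited table. At an unadjusted p under 0.05, 1 of the 7 was lower, GNA11, a subunit of the Gq class, with 472 and 695 normalised reads in wild type against 376 and 317 in the knockout. The adjusted p of GNA11 in the authors' deposited table was 0.0503 (DESeq2). Limma with all libraries called 0 of the 7, in a fit that called 2598 of 16912 genes. GNAI2, the main Gi subunit of lymphocytes, had 8021 and 8951 against 7265 and 7046.

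Of 22 genes listed as chemoattractant receptors, 13 were tested: 4 rose, 2 fell and 7 did not pass, against the same 9.89% higher and 9.28% lower over all tested genes. CCR7, which guides lymphocytes to the T cell zone, had 804 and 1050.4 normalised reads in wild type and 7202 and 6826 in the knockout. GPR183, the oxysterol receptor that positions B cells in the follicle, had 120 and 86.5 against 990.2 and 968. CXCR4, the receptor for CXCL12, had 1399 and 1155 against 2415 and 2327, and P2RY10, a lysophospholipid receptor, had 1379.9 and 1179 against 2961 and 2858. The log2 fold changes of these 4 in the authors' deposited table were 2.92, 3.22, 0.89 and 1.18 with SEs of 0.18, 0.27, 0.19 and 0.18. PTAFR, the receptor for platelet-activating factor, fell from 2815 and 3683 to 1288 and 1333, and LPAR5, a lysophosphatidic acid receptor, from 328 and 243 to 125 and 134. CXCR5, S1PR2 and P2RY8, receptors of follicular B cells, did not pass the test.

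Markers of cell state were read beside these changes, where 19.2% of all tested genes were called. Of 5 germinal centre B cell markers, 2 fell (BCL6 and MME), 1 rose (MYBL1) and 2 did not pass, and their summed normalised reads were 26189 to 30303 in wild type and 23779 to 24222 in the knockout. Of 8 B cell markers, MS4A1 and CD74 rose, CD79B fell and 5 did not pass, with sums without CD74 of 60874 and 61295 in wild type and 77368 and 77819 in the knockout. Of 6 T cell markers 4 were not listed, CD3E had 0 normalised reads in wild type and at most 7.77 in the knockout, and CD247 fell from 204 and 269 to 15 and 0.97. Of 6 myeloid markers, 3 were tested and 0 called by DESeq2, with 1 at an unadjusted p under 0.05, and the sum ran from 52.6 to 73.9 over the 4 libraries. Of 6 epithelial, fibroblast and erythroid markers, COL1A1 alone was tested and rose, and carried nearly all of a sum of 120 to 142 in wild type and 257 to 307 in the knockout. The part of these markers in the changes of the RGS genes was not tested.

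**Figure D4:**
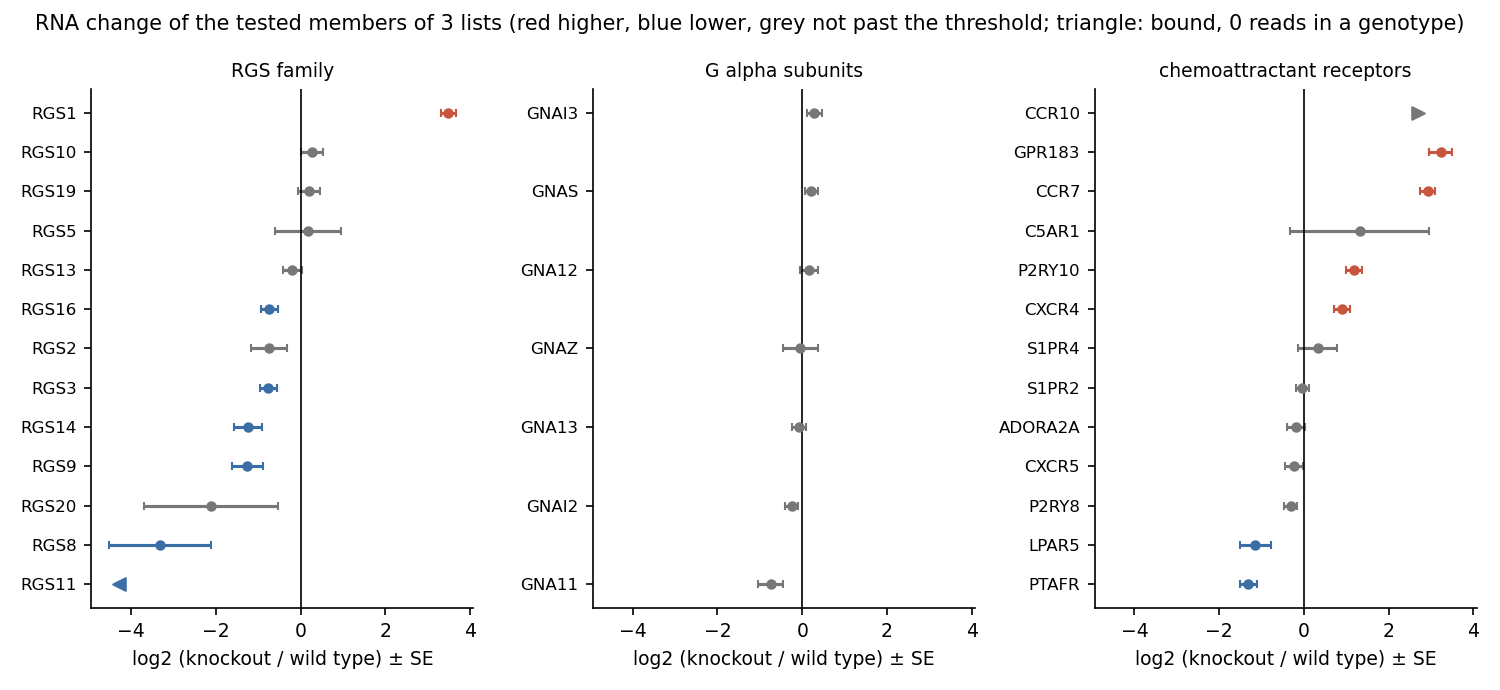
Log2 fold change of knockout over wild type with its SE, from the authors' deposited table, for the tested members of the RGS family, the G alpha subunits and the chemoattractant receptors (red higher, blue lower, grey not past the threshold). A triangle marks a gene with 0 reads in a genotype, drawn at its bound. RGS1, at 3.49, is the only RGS gene past the threshold on the right, and 6 lie past it on the left.

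The genes nearest to RGS1 in size of change were taken from 1018 protein-coding genes past the threshold with a mean within 2-fold of its own, among which RGS1 stood 4th from the top. DYNC2H1, a dynein heavy chain of cilia, had a log2 fold change of 5.29 with an SE of 0.26 in the authors' deposited table. CXCL10, a chemokine induced by interferon, stood at 3.96 with 0.24, and IRF4, a regulator of B cell activation and plasma cell differentiation, at 3.65 with 0.16. Below RGS1 came CCL22, a chemokine of activated B cells, at 3.24 with 0.17, CCR7 at 2.92 with 0.18, and FCER2, the low-affinity IgE receptor CD23, at 2.90 with 0.18 in the authors' deposited table. These genes were chosen for being past the threshold, so their values are a description. The likeness is over 4 libraries and 2 genotypes.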

How the data were processed

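The members and the gene lists were chosen with earlier results of these data known. The submitters' processing notes name Trim Galore, Trimmomatic, cutadapt, STAR, featureCounts, Bowtie2, HOMER and DESeq2 with GRCh38 or hg38. No version is named, and which program called peaks is not given in the sources used here. The header of the peak column names merged peaks, so 1 peak list served all libraries. The deposited tables are DESeq2 results, per the file headers. The deposited signal of a gene or peak is its mean over 4 libraries of counts divided by size factors. The authors give fold changes and SEs as log2 values. The authors' Wald score is their quotient. The deposited p-value is two-sided, with a Benjamini-Hochberg adjusted value beside it. The other column used from the deposited ATAC table is HOMER's annotation, given with the distance to the nearest start.

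No column gives a value per library, so the authors' Wald results were used as the main test, and features with an adjusted p under 0.05 were called. Each mean is a sum of whole reads divided by 4 times each size factor. The 4 steps were found by lattice reduction (sympy 1.14.0, numpy 2.4.6), and all whole-number sets meeting the deposited digits were listed for means up to 30000. A set was kept as unique if it alone also returned the deposited fold change. This left 1045 genes with a single set for the mean only, 17 with several or none and 84 above the limit. Pairing the libraries otherwise decoded 0 of 300 test features, against 300 genes and 291 peaks with the pairing used. The recovery was tested on simulated features with reads in both genotypes, so features with 0 reads in a genotype were not covered.

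Recovered counts were refitted with limma 3.58.1 (voom weights, R 4.3.3), chosen after the data were seen, as were the fits leaving out a library. Gene positions came from GENCODE release 44. The genes named were the members, all genes within 1 Mb, list members past the threshold, and 3 genes on either side of RGS1 in fold change. One gene of the germinal centre marker list is not reported here and was left out of its count and sum. Alternatives are given with the closing section.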

Additional observations from a re-analysis of the deposited data

How the results depend on the processing

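RGS1 RNA and peak 11 kept their direction and call under each alternative run (a test against a 1.5-fold change, statistics divided by their robust SD, no filter on low means, means of at least 10, centring on chromosome 1, and limma with and without each library). For peak 11 the direction was fixed in advance, since its 0 reads set which genotype was read as the knockout. With each library left out in turn, limma gave log2 values from 3.35 to 3.64 for RGS1, -0.54 to 0.25 for RGS13, -0.94 to -0.61 for RGS2, -6.16 to -2.87 for ENSG00000289995, -10.39 to -10.15 for peak 11, -0.26 to 0.0080 for the RGS1 promoter peak, -0.092 to 0.0056 for the RGS13 promoter peak and -0.040 to 0.30 for peak 2, which turned to -0.0076 without the deeper wild-type library and -0.040 without the deeper knockout library. ENSG00000289995, -6.72 as fitted by the authors, was not called against a 1.5-fold change, with the robust SD, or with limma (-4.97). Other alternatives that moved a count were these. Against a 1.5-fold change 0 window peaks were higher and 1 lower, with 1 RGS gene and 1 receptor lower. With the robust SD 0 were higher and 2 lower, and in the labelled interval alone 3 were lower. Summed reads of the labelled interval were 86.6% of wild type and those without peak 11 93.3%, with 83.1% to 87.7% when a library was left out. Over left-out libraries, the window had 4 to 5 higher and 6 to 7 lower peaks, the RGS family 1 to 3 higher and 0 to 6 lower genes, the alpha subunits 0 to 2 higher and 0 to 3 lower, and the receptors 3 to 4 higher and 1 to 4 lower. The cause of these ranges was not tested. Each such fit had fewer libraries, and the number of all genes called varied widely with the library left out. Over all genes, 394 were higher and 277 lower against a 1.5-fold change, 401 and 269 with a robust SD of 1.70, and 1389 and 1209 with limma. Over all peaks, 4346 and 1803, 1597 and 778 (robust SD 2.46), and 18369 and 16128 were called in the same order. Of the values of other named peaks and genes under the alternatives, 163 of 190 and 189 of 245 stayed on their side of the threshold. These shares pool settings of unlike strength. Centring on chromosome 1 moved none of 44 values. Against a 1.5-fold change 22 lost their call and 22 were unmoved, and with the robust SD 21 lost it and 23 were unmoved.

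No paired analysis was possible because the recovered counts cannot be tied to replicate numbers. The planned refits with edgeR and DESeq2 were not run. Depth limits ENSG00000289995, RGS8 and RGS11, which had under 62 normalised reads in each library, and 2 libraries a genotype limit every test. Recovered counts rest on the deposited digits.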
